A study of Mus musculus with 9 samples.

Results

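Transcripts of 10 genes for histone H3 lysine 9 (H3K9) methylation and heterochromatin silencing were followed in 9 RNA sequencing libraries of mouse embryonic stem (ES) cells. The genes were Trim28, Setdb1, Atrx, Daxx, Morc3, Hells, Ehmt1, Ehmt2, Kdm1a and Cbx1. They were found by their symbols among the 24411 gene entries of each deposited table, and all 10 had an entry and passed the filter on low counts. The cells were of the EB5 line, a male derivative of E14tg2a cells of 129Ola background that carries a blasticidin resistance cassette at 1 Oct3/4 allele in every group, cultured in fetal calf serum with leukemia inhibitory factor on gelatin. The 3 Parental libraries had neither zinc finger gene removed, the 3 Zfp352-KO libraries lacked Zfp352 after CRISPR-Cas9 deletion, and the 3 Zfp352/Zfp353-DKO libraries lacked Zfp352 and Zfp353. Whether an edited genotype is 1 clone, and whether its libraries are separate cultures, is not given in the sources used here, so each p-value measures how far these libraries scatter, and that scatter may be technical.

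H3K9 methylation marks chromatin that is kept silent. In ES cells the corepressor TRIM28 (KAP1) is brought to retrotransposons and imprinted loci by KRAB zinc finger proteins and recruits the methyltransferase SETDB1, while EHMT1 (GLP) and EHMT2 (G9a) form a second methyltransferase, and HP1 proteins such as the CBX1 product bind the mark. ATRX and DAXX deposit the histone variant H3.3 in heterochromatin, MORC3 is an ATPase that acts with them at retrotransposons, HELLS (LSH) is a chromatin remodeller needed for DNA methylation of repeats, and KDM1A (LSD1) removes methyl groups from histone H3 and represses retrotransposons and genes of the 2-cell stage.

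The promoter windows of 3 members are printed because Atrx and Hells are the members that were called different and Trim28 is the most abundant one. Each runs from 250 bases before to 50 bases after an annotated start (RefSeq, GRCm38.p6), 5′ to 3′ on the gene's strand. The Atrx window is chrX:105929323-105929622 (minus strand), that of Hells is chr19:38930740-38931039 (plus strand) and that of Trim28 is chr7:13023902-13024201 (plus strand).
Atrx: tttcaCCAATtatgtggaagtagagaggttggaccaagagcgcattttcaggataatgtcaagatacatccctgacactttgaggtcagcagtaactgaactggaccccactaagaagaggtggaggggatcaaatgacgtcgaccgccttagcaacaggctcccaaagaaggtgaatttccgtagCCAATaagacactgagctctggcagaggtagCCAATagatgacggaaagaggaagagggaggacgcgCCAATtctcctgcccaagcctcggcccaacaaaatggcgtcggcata
Hells: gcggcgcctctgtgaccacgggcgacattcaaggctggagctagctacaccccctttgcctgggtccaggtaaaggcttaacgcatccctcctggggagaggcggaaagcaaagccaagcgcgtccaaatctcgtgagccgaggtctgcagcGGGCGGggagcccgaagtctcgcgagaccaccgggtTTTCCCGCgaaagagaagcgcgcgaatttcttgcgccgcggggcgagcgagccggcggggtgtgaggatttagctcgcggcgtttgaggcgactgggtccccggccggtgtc
Trim28: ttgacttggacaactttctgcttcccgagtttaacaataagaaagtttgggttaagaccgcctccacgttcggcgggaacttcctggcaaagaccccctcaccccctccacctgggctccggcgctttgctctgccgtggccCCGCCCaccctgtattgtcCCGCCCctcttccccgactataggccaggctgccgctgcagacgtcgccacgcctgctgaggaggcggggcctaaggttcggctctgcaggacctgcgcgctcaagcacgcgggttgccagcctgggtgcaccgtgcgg
Capitals mark matches on either strand to the CCAAT box (CCAAT), the GC box (GGGCGG) or an E2F site (TTTCCCGC), and matches to different motifs did not overlap in these windows. Atrx held 4 CCAAT boxes and 11 CpG dinucleotides, Hells 1 GC box, 1 E2F match and 34 CpGs, and Trim28 2 GC boxes and 23 CpGs, against a median of 7 CpGs per window. Of 32851 promoter windows of this length in the same table, 37.4% held a CCAAT box, 35.7% a GC box and 1.07% the E2F letters. Such matches describe the sequence and were not tested for factor binding.

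Expected counts, which are estimates of the reads of each gene, summed to between 16599004 and 22044820 per library. The targeted gene was read first: Zfp352 (chromosome 4, 90218820 to 90225687) had 47, 52 and 41 expected counts in Parental cells, 3, 8 and 10 where it alone was deleted and 1, 1 and 3 where both genes were, with log2 fold changes of -2.65 ± 0.32 and -4.64 ± 0.42 (SE; edgeR, adjusted p = 6.1e-05 and 8.0e-07). Zfp353 was not analysed here. The pluripotency markers were high throughout, with Pou5f1 between 1095 and 1222 TPM (a level scaled for transcript length and library depth). Nanog lay between 386 and 430 and Sox2 between 347 and 434. Against Parental, Sox2 was called higher in Zfp352/Zfp353-DKO (log2 fold change 0.193 ± 0.045, edgeR adjusted p = 0.0113) but not in Zfp352-KO (0.094 ± 0.045, adjusted p = 0.208). Pou5f1 and Nanog were not called in either. Long and short transcripts were not sampled alike in every library. For each library, log2 CPM (counts scaled to a common depth), centred on the 9-library mean of the gene, were ranked against transcript length, and Spearman's rho across genes was -0.307, -0.402 and -0.0813 for Parental libraries 1, 2 and 3. It was 0.391, 0.189 and -0.0655 for those of Zfp352-KO, and -0.127, -0.0218 and 0.362 for those of Zfp352/Zfp353-DKO. Zfp352-KO libraries 1 and 2 and Zfp352/Zfp353-DKO library 3 had the highest rho, with relatively more counts on long transcripts, and Parental libraries 1 and 2 the lowest.

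Levels, in TPM (scaled for transcript length, so genes can be compared), differed among the members far more than among the genotypes. Mean TPM in Parental cells was 1384 ± 30.5 for Trim28 (SD, n = 3, as for all means here), 272 ± 10.1 for Cbx1, 211 ± 3.44 for Hells and 171 ± 3.20 for Kdm1a. The other 6 genes lay between 74.2 ± 0.577 for Morc3 and 40.1 ± 2.66 for Ehmt1. In descending order Morc3 was followed by Ehmt2, Setdb1, Daxx, Atrx and Ehmt1, and only Daxx and Atrx overlapped among neighbours in this order in Parental libraries. All 10 were among the better expressed genes: 99.2% of tested genes had a lower mean Parental TPM than Trim28, and 74.8% had a lower one than Ehmt1. In Zfp352-KO libraries Ehmt2 and Setdb1 overlapped, and in Zfp352/Zfp353-DKO libraries Cbx1 and Hells, Ehmt2 and Setdb1, and Daxx and Atrx did.

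**Figure D1:**
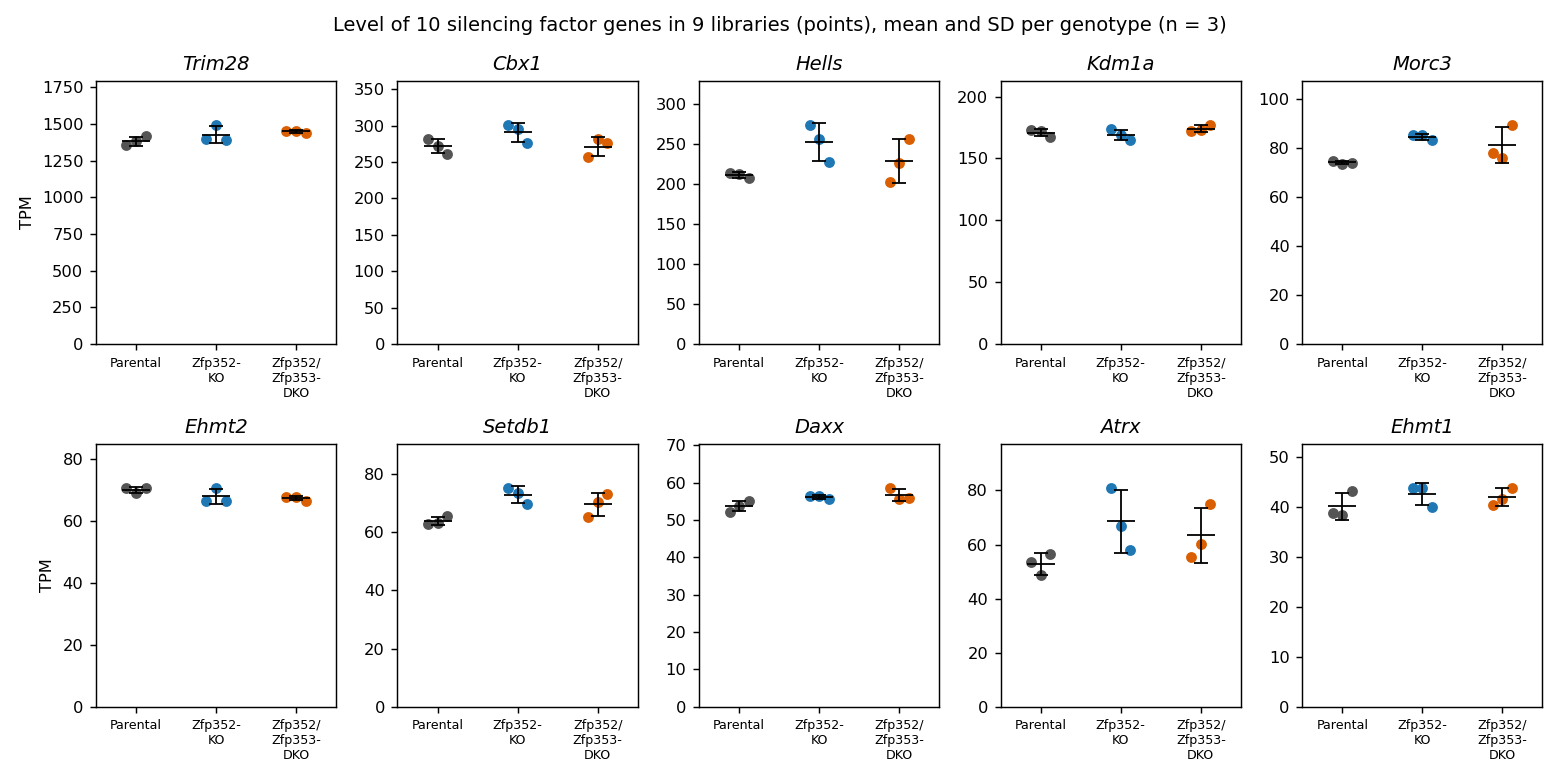
TPM of the 10 silencing factor genes (vertical axes start at 0) in each of 9 libraries (points, by genotype), with the mean and SD of 3 libraries per genotype. Trim28 lies above 1350 TPM in every library, and all 3 Zfp352-KO libraries lie above all Parental ones for Setdb1, Atrx, Daxx, Morc3 and Hells.

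Deletion of Zfp352 alone was read against Parental cells to ask whether the silencing machinery itself is transcribed differently where Zfp352 is deleted. Atrx and Hells were higher in Zfp352-KO cells, by 1.26-fold (95% interval 1.11 to 1.43) and 1.16-fold (1.06 to 1.27), and the other 8 members did not pass edgeR's adjusted threshold in either direction. In edgeR (quasi-likelihood F test, p adjusted by Benjamini and Hochberg's method over 14300 genes), 2 of 10 members were called higher at an adjusted p under 0.05, where 3.43% of all tested genes were, and 0 were called lower, where 3.64% were. At an unadjusted p under 0.05 there were 4 members (Atrx, Hells, Setdb1 and Morc3), against 23.7% of all genes. The median log2 fold change was 0.045 over the members and -0.009 over all tested genes, and the median absolute one was 0.077 and 0.11, where all tested genes include many of lower count than the members. DESeq2 called 3 members (Setdb1, Morc3 and Hells, but not Atrx), and limma on log2(TPM + 1) called 0. Over all genes DESeq2 called more higher than edgeR did here and limma fewer, with the counts given in the closing section.

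**Figure D2:**
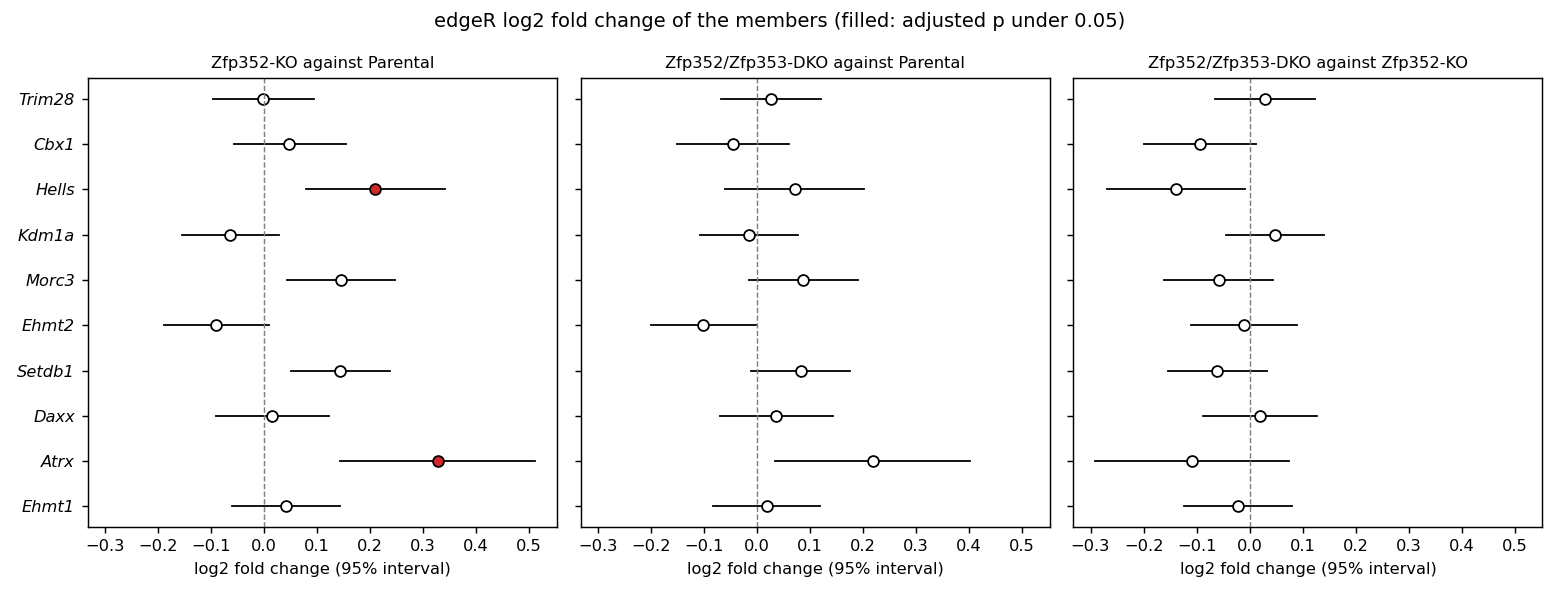
Log2 fold change of each member by edgeR with its 95% interval in the 3 comparisons, with a filled point where the adjusted p was under 0.05. The filled points are Atrx (0.33) and Hells (0.21) in Zfp352-KO against Parental.

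Trim28 lies on chromosome 7 (13024152 to 13031032, GRCm38.p6, as all coordinates here). It measured 1355, 1381 and 1415 TPM in the Parental libraries, 1399, 1495 and 1388 in Zfp352-KO and 1455, 1455 and 1438 in the double knockout. The edited libraries overlapped with the Parental ones in Zfp352-KO and lay above them in Zfp352/Zfp353-DKO, by little. The edgeR log2 fold change was -0.001 ± 0.045 (SE) in Zfp352-KO (95% interval -0.096 to 0.094, adjusted p = 0.991) and 0.027 ± 0.045 in Zfp352/Zfp353-DKO (-0.068 to 0.122, adjusted p = 0.765). Both intervals lie within 0.122 of 0, so a larger change in either direction was outside them.

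Setdb1, the methyltransferase that TRIM28 recruits, lies on chromosome 3 (95323525 to 95357202). Its TPM was 63.0, 63.3 and 65.7 in the Parental libraries, 75.4, 73.6 and 69.9 in those of Zfp352-KO and 65.4, 70.5 and 73.2 in the Zfp352/Zfp353-DKO ones. All Zfp352-KO libraries lay above all Parental ones, whereas Zfp352/Zfp353-DKO library 1 fell within the Parental range. The log2 fold change in Zfp352-KO was 0.14 ± 0.04, just outside edgeR's threshold (adjusted p = 0.0551), and by DESeq2 it was 0.15 ± 0.05 with an adjusted p of 0.0294. With Zfp352-KO library 3, Zfp352/Zfp353-DKO library 1 or Zfp352/Zfp353-DKO library 3 left out, edgeR's adjusted p was 0.0437, 0.0429 or 0.0353. In the other 6 of 9 omissions Setdb1 was not called, with an edgeR adjusted p of up to 0.214. The edgeR adjusted p was 0.12 with length trends removed and 0.13 with length and GC trends removed (described below). By limma it was 0.0705. The ratio of Trim28 to Setdb1 in TPM was 21.6 ± 0.173 in Parental libraries, 19.6 ± 0.911 with Zfp352 deleted and 20.8 ± 1.31 with both genes deleted.

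Atrx, on the X chromosome (105797615 to 105929372), had the largest difference among the members. Its expected counts were 6585, 5723 and 6118 in Parental cells, 7211, 8086 and 6520 after deletion of Zfp352 and 6496, 6468 and 7390 in the double knockout. In TPM these libraries measured 53.7, 48.5 and 56.4, then 81.1, 67.0 and 58.0, then 55.3, 60.2 and 74.9. Every Zfp352-KO library lay above every Parental one, but library 3 by only a small step, and the SD of the edited genotypes (11.7 TPM with Zfp352 deleted and 10.2 with both genes deleted) was more than that of Parental cells (4.01). The log2 fold change in Zfp352-KO was 0.33 ± 0.09 (edgeR, adjusted p = 0.0314). The call was lost on leaving out Parental library 1 (adjusted p = 0.127), 2 (0.123) or 3 (0.0503) or Zfp352-KO library 1 (0.197) or 2 (0.0746), and over all omissions the log2 fold change ran from 0.21 to 0.43.

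Daxx, the H3.3 chaperone that works with ATRX, lies on chromosome 17 (33909404 to 33915590). It had 52.2, 53.8 and 55.1 TPM in the Parental libraries, 56.5, 56.5 and 55.6 in those of Zfp352-KO and 58.7, 55.6 and 55.8 in the Zfp352/Zfp353-DKO ones. Both edited genotypes lay above Parental without overlap in TPM, but edgeR's log2 fold changes were 0.016 ± 0.051 (adjusted p = 0.884) and 0.037 ± 0.051 (adjusted p = 0.712). TPM stood slightly higher in edited cells as a whole, since the median gene differed by 0.031 and 0.033 in log2(TPM + 1) but by -0.009 and 0 in edgeR's fold changes. The ratio of Atrx to Daxx in TPM was 0.985 ± 0.0722 in Parental libraries, 1.22 ± 0.199 with Zfp352 deleted and 1.12 ± 0.203 with both genes deleted.

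Morc3 (chromosome 16, 93832121 to 93876077) had 74.8, 73.6 and 74.1 TPM in Parental libraries, the tightest spread of the 10 genes for its level. Zfp352-KO libraries had 85.3, 85.5 and 83.3 TPM and Zfp352/Zfp353-DKO libraries 77.9, 76.1 and 89.5. Both edited groups lay above Parental without overlap, and in the double knockout library 3 stood apart from the other two. In Zfp352-KO the log2 fold change was 0.15 ± 0.05 with an edgeR adjusted p of 0.0763, and DESeq2 gave an adjusted p of 0.0499. Leaving out Zfp352/Zfp353-DKO library 3 brought edgeR's adjusted p to 0.0308. In the other 8 of 9 omissions Morc3 was not called, with an edgeR adjusted p of up to 0.2. With length trends removed the edgeR adjusted p was 0.0911, and with length and GC trends removed 0.304.

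Hells lies on chromosome 19 (38930262 to 38970470). Its expected counts were 7574, 7268 and 6502 in Parental cells, 7060, 8953 and 7404 after deletion of Zfp352 and 6898, 7052 and 7342 in the double knockout. In TPM these were 213, 213 and 207, then 274, 256 and 227, then 203, 226 and 257. The Zfp352-KO libraries lay above the Parental ones, and the Zfp352/Zfp353-DKO libraries spanned a range from below the lowest Parental library to the middle of the Zfp352-KO ones. The log2 fold change in Zfp352-KO was 0.21 ± 0.06 (edgeR, adjusted p = 0.0483; DESeq2, adjusted p = 0.0197). The edgeR call was lost on leaving out Parental library 1 (adjusted p = 0.158), 2 (0.0811) or 3 (0.131), Zfp352-KO library 1 (0.230) or 2 (0.131) or Zfp352/Zfp353-DKO library 2 (0.0653), with log2 fold changes between 0.16 and 0.28 over all omissions.

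Ehmt1 and Ehmt2, partners in the GLP and G9a complex, were not called in any comparison. Ehmt1 (chromosome 2, 24790769 to 24919643) had 38.8, 38.4 and 43.2 TPM in the Parental libraries, 43.9, 43.8 and 40.0 in those of Zfp352-KO and 40.4, 41.5 and 43.8 in the Zfp352/Zfp353-DKO ones, which overlapped throughout. Ehmt2 (chromosome 17, 34898463 to 34914073) had 70.9, 69.1 and 70.6, then 66.6, 70.8 and 66.6, then 67.9, 67.9 and 66.6 TPM. It was the member whose Zfp352/Zfp353-DKO libraries all lay below the Parental ones, with a log2 fold change of -0.10 ± 0.05 that edgeR did not call (adjusted p = 0.196). The Ehmt1 to Ehmt2 ratio in TPM was 0.571 ± 0.0347 in Parental libraries, 0.626 ± 0.0294 with Zfp352 deleted and 0.622 ± 0.0329 with both genes deleted, and Parental library 3 (0.611) overlapped with both edited groups.

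Kdm1a and Cbx1, the demethylase and the HP1-beta gene, overlapped among all genotypes. Kdm1a (chromosome 4, 136550533 to 136602787) had 173, 172 and 167 TPM in Parental cells, 173, 169 and 165 after deletion of Zfp352 and 172, 173 and 177 in the double knockout. Cbx1 (chromosome 11, 96788680 to 96808982) had 282, 272 and 262, then 301, 296 and 276, then 257, 282 and 276 TPM. Neither passed the test: the edgeR log2 fold changes in Zfp352-KO were -0.063 ± 0.044 (95% interval -0.155 to 0.029, adjusted p = 0.418) for Kdm1a and 0.048 ± 0.050 (-0.057 to 0.154, adjusted p = 0.610) for Cbx1. The annotated span of Kdm1a overlaps that of Luzp1 on the other strand by 4248 bases, Morc3 overlaps Gm30881 by 899 and Setdb1 overlaps Cers2 by 75, and whether counting used the strand is not given in the sources used here, so reads there could come from either gene.

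The transcript length in the deposited tables set Atrx apart from the other members. Its transcript has 10244 bases, followed by Ehmt1 (5047), Setdb1 (4624), Morc3 (4179), Ehmt2 (3831), Trim28 (3242), Hells (3019), Kdm1a (3015), Daxx (2588) and Cbx1 (1274). For 6 members the length was identical in every library, and for Setdb1, Daxx, Ehmt1 and Ehmt2, which have several transcripts, it varied by at most 0.954% (Ehmt1, from 5015 to 5063 bases), so a switch between their transcripts moved the TPM scaling by less than 1%. The length nevertheless stood beside the changes: in Zfp352-KO against Parental the median log2 fold change of all tested genes ran from -0.115 under 1000 bases to 0.182 at 8000 bases or more, where 21.1% of 574 genes were called higher.

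**Figure D3:**
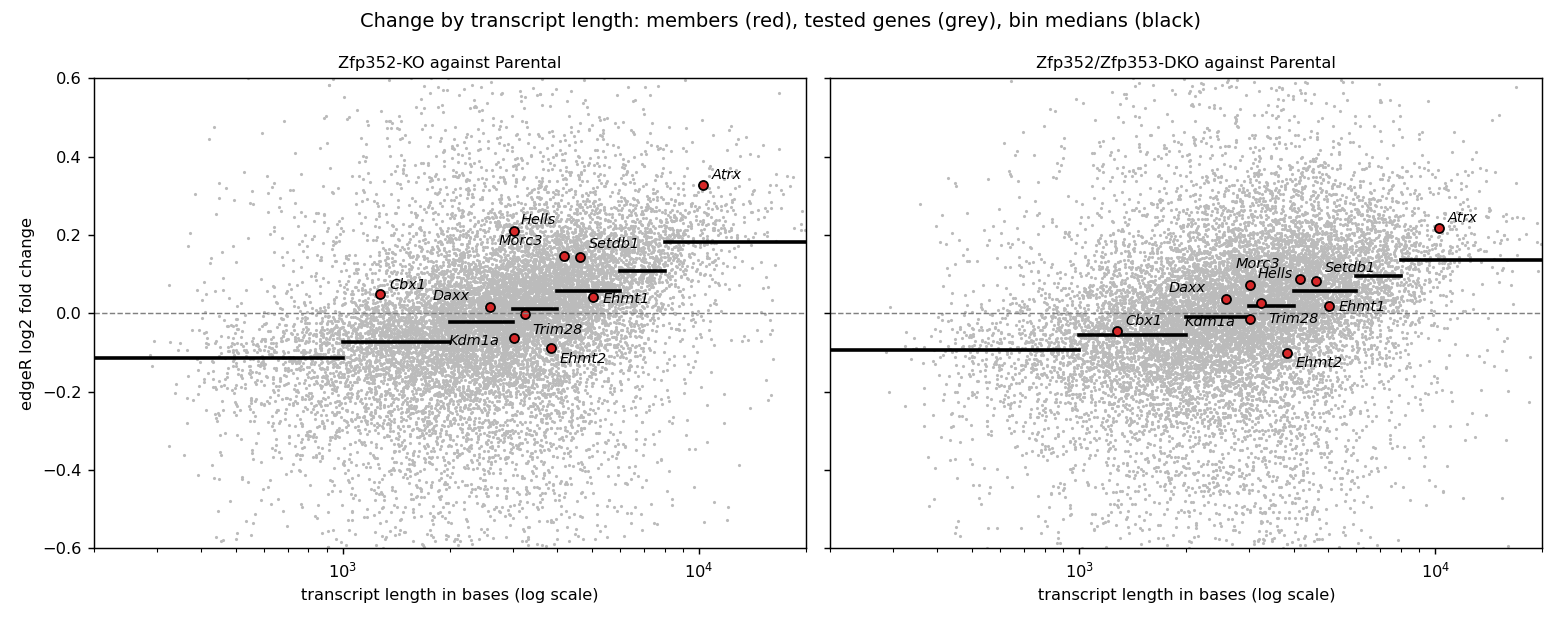
Log2 fold change by edgeR against transcript length (log axis) for all tested genes (grey), medians of length bins (black bars) and the 10 members (red), in both comparisons with Parental cells. Genes beyond the axis limits are not drawn. Medians rise with length in both panels, and Atrx and Hells lie above the medians of their bins in Zfp352-KO.

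Against tested genes of like length (from 20% shorter to 25% longer), the members took other places than their fold changes alone give. The 443 genes of like length to Atrx had a median log2 fold change of 0.18 in Zfp352-KO (quartiles 0.078 and 0.25), and Atrx lay 0.15 above it, higher than 91.2% of them. Hells, of average length, lay 0.21 above a median of -0.002 and higher than 91.4% of its 3918 like genes. Setdb1 and Morc3 lay above 77.3% and 79.9% of theirs, and Cbx1, the shortest member, above 82.7% of genes whose median was -0.082. Ehmt2 lay above only 21.8%, and Trim28, Daxx, Ehmt1 and Kdm1a above 31.8% to 60.6%.

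The order of the libraries was compared with their length trends as a description. In TPM, Atrx ranked the 9 libraries in the same order as the libraries' rho with length, from Zfp352-KO library 1 at the top to Parental library 2 at the bottom. For Hells the 3 libraries with the highest rho (Zfp352-KO library 1, Zfp352/Zfp353-DKO library 3 and Zfp352-KO library 2) were also the highest 3, although its transcript is of average length. Hells has the lowest GC content of the members (37.7%), followed by Atrx (39.5%), Morc3 (43.5%), Cbx1 (47.7%) and Setdb1 (49.2%), and Ehmt2 (60.4%) and Trim28 (59.6%) have the highest. Of all tested genes, those whose log2 CPM followed Atrx most closely over the 9 libraries were Ankfy1 (Pearson r = 0.990, 8034 bases) and Casc5 (r = 0.989, 6525 bases), and Dhx9 (r = 0.977, 4613 bases) and Smarca5 (r = 0.976, 4639 bases) followed Hells. These r values describe the same 9 libraries, which share the length trends, so they carry no p-value.

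**Figure D4:**
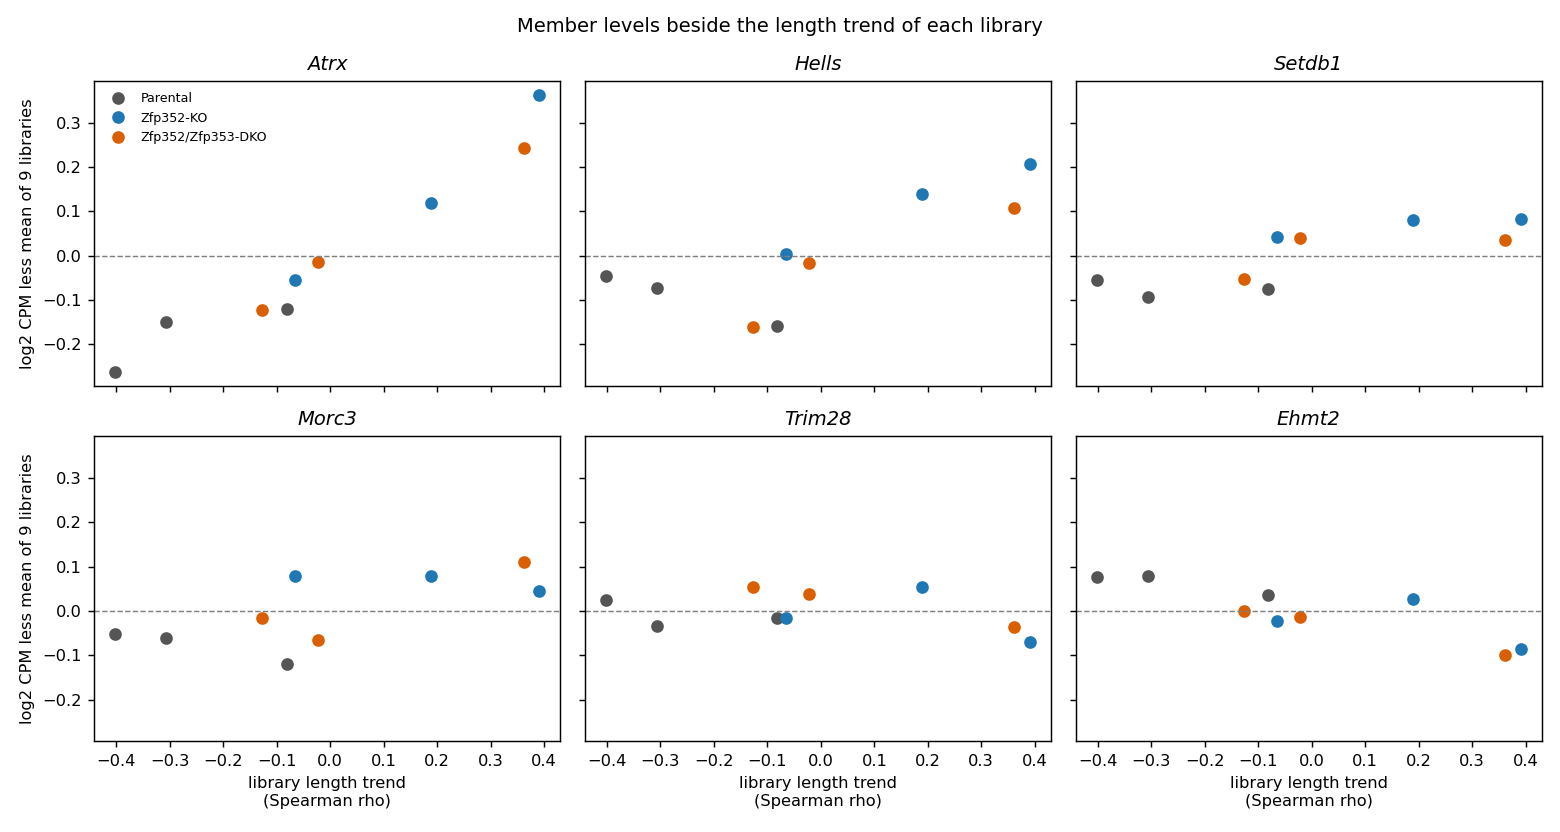
Log2 CPM of 6 members in each library, less their mean over the 9 libraries, against the library's Spearman rho with transcript length (points coloured by genotype). Atrx runs from -0.263 in Parental library 2 (rho -0.402) to 0.363 in Zfp352-KO library 1 (rho 0.391), while Trim28 stays between -0.071 and 0.055.

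Removing the trends moved Atrx and Hells in different ways. With a length trend taken out of each library, the log2 fold change of Atrx in Zfp352-KO was 0.17 ± 0.05 (edgeR, adjusted p = 0.0545) and that of Hells 0.23 ± 0.06 (adjusted p = 0.0179), so 1 member was called where 3.13% of all genes were called higher. With length and GC trends taken out, Atrx was at 0.057 ± 0.036 (edgeR, adjusted p = 0.41) and Hells at 0.079 ± 0.037 (adjusted p = 0.245), and no member was called where 2.88% of genes were called higher. Only 5 libraries had an absolute rho under 0.2, called flat here, and among them Zfp352-KO library 2 (0.189) still lay above Parental library 3 (-0.0813), the 1 Parental library left. In these 5 the values were 0.15 for Atrx (edgeR, adjusted p = 0.387) and 0.23 for Hells (adjusted p = 0.154). That fit called 124 of all tested genes and 0 members (1 Parental library remains, assumed to vary like the others). The part of library composition in the Atrx and Hells differences cannot be told apart from genotype where the trends fall unevenly on the genotypes.

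**Figure D5:**
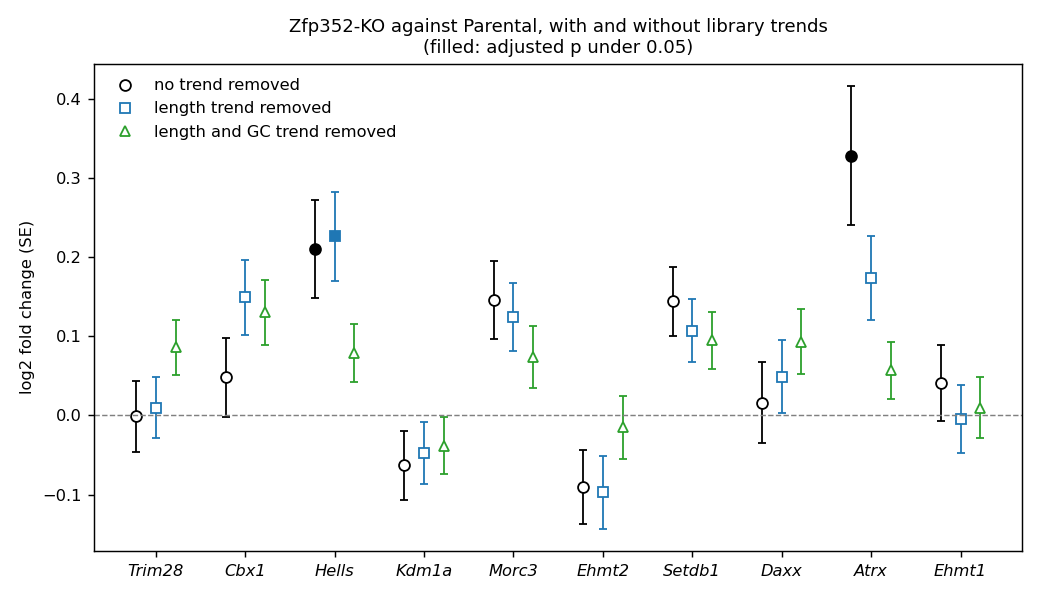
Log2 fold change (SE) of the members in Zfp352-KO against Parental with no trend removed, with each library's length trend removed, and with length and GC trends removed (filled: edgeR adjusted p under 0.05). Atrx falls from 0.33 to 0.17 and 0.057, and Hells from 0.21 and 0.23 to 0.079.

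The comparison of Zfp352/Zfp353-DKO with the same Parental libraries asked the question for the loss of both genes. No member was called by edgeR, where 3.65% of all genes were called higher and 4.82% lower; 2 members (Atrx and Ehmt2) had an unadjusted p under 0.05, against 24.5% of genes, and DESeq2 and limma called 0. Atrx was at 0.22 ± 0.09 (95% interval 0.035 to 0.40, edgeR adjusted p = 0.129), which became an adjusted p of 0.0197 when low-count genes were not filtered out, and Hells was at 0.072 ± 0.062 (adjusted p = 0.523). The other 8 ranged from -0.10 for Ehmt2 to 0.088 for Morc3. The median over the members was 0.032 against 0 for all genes, and the median absolute value 0.058 against 0.112. In TPM, 3 members lay above Parental without overlap (Trim28, Daxx and Morc3; 15.8% of all genes did) and 1 below (Ehmt2; 11.0% did), whereas in Zfp352-KO there had been 5 above (Setdb1, Atrx, Daxx, Morc3 and Hells; 16.2%) and 0 below (9.98%). Against genes of like length, Atrx exceeded 77.7% and Hells 68.5%. With the length trend removed 0 members were called higher in the double knockout, where 5.43% of genes were, and with length and GC trends removed 0, where 5.45% were. Atrx was then at 0.12 (edgeR, adjusted p = 0.155) and 0.015 (adjusted p = 0.849).

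Between the edited genotypes, the double knockout and Zfp352-KO were not told apart in any member. By edgeR 0 members were called, where 0.014% of genes were higher and 0.0909% lower, 1 member had an unadjusted p under 0.05 (6.43% of genes did), and DESeq2 and limma called 0. That member was Hells, at -0.14 ± 0.06 (95% interval -0.27 to -0.008, edgeR adjusted p = 0.746). The remaining log2 fold changes ran from -0.11 for Atrx to 0.048 for Kdm1a, and apart from Atrx (-0.29 to 0.075) and Hells the interval that reached farthest from 0 was that of Cbx1 (-0.20 to 0.012). In TPM 0 members lay apart from the other genotype in either direction, where 5.15% of all genes were higher and 5.52% lower without overlap.

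Partners of these factors were taken from 7 lists of 62 genes, of which 61 were tested, and most did not pass the test. By edgeR 9 of the 61 were called higher and 0 lower in Zfp352-KO, where 3.43% of all tested genes were higher and 3.64% lower. In the double knockout 7 were called higher and 0 lower, against 3.65% and 4.82% of all genes. The median log2 fold change was 0.069 and 0.067, against -0.009 and 0 for all tested genes. DESeq2 called 12 and 5 higher and limma 1 and 2, where limma called fewer of all genes than edgeR did in both comparisons. Those called higher had a median length of 6189 bases against 3541 for all 61. With the length trend removed 8 of the 9 and 7 of the 7 kept their calls. In all, 10 and 10 were then called higher, against 3.13% and 5.43% of all genes. With length and GC trends removed 3 and 3 kept their calls. In all, 7 and 8 were then called higher, against 2.88% and 5.45% of all genes, and 1 was called lower in the double knockout. In the 5 libraries with flat trends the median log2 fold change was 0.069 and 0.04. Every one of the 9 and 7 edgeR calls made without trend removal was lost on leaving out some library. Without Parental library 1 no gene of the lists was called in either comparison. Counts over the other omissions ran up to 19 in Zfp352-KO (without Zfp352/Zfp353-DKO library 3) and up to 10 in the double knockout (without its library 1). Of all tested genes, 210 to 1552 and 449 to 1337 were called over the 9 omissions, higher and lower together. The list counts are therefore not set against 1 fixed share of all genes.

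KRAB zinc finger genes, whose proteins lead TRIM28 to its targets, had 3 of 5 members called higher in Zfp352-KO and 2 of 5 in the double knockout, against 3.43% and 3.65% of all tested genes. Like the other lists, this one was chosen with earlier results of these data known, so these shares are not an independent test of it. Zfp57, which protects imprinted loci with TRIM28, had 222, 217 and 217 TPM in the Parental libraries, 256, 271 and 245 in those of Zfp352-KO and 254, 268 and 242 in the Zfp352/Zfp353-DKO ones. All edited libraries lay above all Parental ones. Its log2 fold changes were 0.21 ± 0.05 (edgeR, adjusted p = 0.0198) and 0.21 ± 0.05 (adjusted p = 0.0161), and it was the gene that kept both calls with length and GC trends removed (adjusted p = 0.0002 and 0.00011) and in the 5 libraries with flat trends (0.0478 and 0.0115). The calls were lost without Parental library 1 in both, without Zfp352-KO library 2 in the first (highest adjusted p = 0.0918) and without Zfp352/Zfp353-DKO library 2 in the second (0.0832). Zfp445, another guardian of imprints, was at 0.23 ± 0.06 and 0.21 ± 0.06 (edgeR, adjusted p = 0.0236 and 0.0338), and Zfp932 was at 0.30 ± 0.08 in Zfp352-KO (adjusted p = 0.0334).

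In the other lists single genes were called, where edgeR called 3.43% of all tested genes higher in Zfp352-KO and 3.65% in the double knockout. Fam208a, the TASOR subunit of the HUSH silencing complex, was higher by 0.34 ± 0.08 and 0.33 ± 0.08 (edgeR, adjusted p = 0.0196 and 0.0187, 1 of 6 HP1 and HUSH genes in either genotype). DESeq2 and limma called 0 of these 6 in either genotype. With length and GC trends removed, Fam208a kept its edgeR call only in the double knockout. Ubn2, of the HIRA complex that deposits H3.3, was higher by 0.40 ± 0.09 and 0.36 ± 0.09 (edgeR, adjusted p = 0.0151 and 0.0204, 1 of 10 H3.3 and chaperone genes), and its length is 14669 bases. DESeq2 called Ubn2 only in Zfp352-KO and limma in neither. With length and GC trends removed, it kept its edgeR call only in the double knockout. Smarcad1, a remodeller that binds TRIM28, was higher by 0.22 ± 0.06 and 0.19 ± 0.06 (1 of 14 other silencing factors), and Atf7ip2, a relative of the SETDB1 partner ATF7IP, by 0.24 ± 0.07 and 0.27 ± 0.07 (1 of 7 methyltransferases and partners). With length and GC trends removed, neither Smarcad1 nor Atf7ip2 kept an edgeR call in either genotype. Limma called Smarcad1 in neither genotype and Atf7ip2 only in the double knockout. Among 8 tested H3K9 demethylases, Phf8 (0.28 ± 0.06) and Kdm3b (0.18 ± 0.05) were higher in Zfp352-KO and Kdm7a (0.39 ± 0.10) in the double knockout. Limma called 0 of the 8 in either genotype. With length and GC trends removed, 1 of the 2 Zfp352-KO calls was kept and that of Kdm7a was not. None of 11 genes of the CoREST complex, which holds KDM1A, was called in either by edgeR, DESeq2 or limma. By edgeR 1 and 4 had an unadjusted p under 0.05, against 23.7% and 24.5% of all genes. With length and GC trends removed 2 were called higher in each, against 2.88% and 5.45% of all genes.

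Genes listed as targets that this machinery keeps silent did not move one way. Not all were silent in Parental cells, where Zscan4f had a mean of 110.5 TPM. Of 12 tested genes of the 2-cell stage, edgeR called 3 up and 2 down after Zfp352 deletion, and 1 up (Tmem92) and 2 down (Tcstv3 and Tdpoz4) in the double knockout. Of all tested genes 3.43% were higher and 3.64% lower in the first comparison and 3.65% and 4.82% in the second. Zscan4f was at 0.36 ± 0.05, Zscan4c at 0.36 ± 0.07 and Tmem92 at 0.65 ± 0.09 in Zfp352-KO, while Tcstv3 was at -1.17 ± 0.16 and Tdpoz4 at -4.11 ± 0.37. These 5 calls held on leaving out any 1 library. In the double knockout Tmem92 was at 0.32 ± 0.09 (edgeR, adjusted p = 0.0333), a call lost without Parental library 1 or 2 or any Zfp352/Zfp353-DKO library (adjusted p up to 0.198), by DESeq2 (adjusted p = 0.0591) and by limma (0.0588), and in the 5 libraries with flat trends (edgeR, 0.467). The expected counts of Tdpoz4 were 74, 54 and 59 in Parental libraries, 1, 4 and 5 with Zfp352 deleted and 0, 2 and 2 with both genes deleted, and DESeq2 gave no adjusted p for Tdpoz4 or Tcstv3 in Zfp352-KO. In the 5 libraries with flat trends Tcstv3 was no longer called there (edgeR, adjusted p = 0.099). Between the edited genotypes the log2 fold change of Zscan4f was -0.26 ± 0.05 (edgeR, adjusted p = 0.0265), a call lost without Parental library 1, any Zfp352-KO library or Zfp352/Zfp353-DKO library 1 or 2. The Zscan4, Tcstv and Tdpoz families have near-identical copies that share reads, so values of single copies are uncertain. Zscan4c and Tcstv3 were named after their values were seen.

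Of 14 tested germline genes, listed as targets of silencing by DNA and H3K9 methylation, 0 were higher in either genotype, where 3.43% and 3.65% of all genes were. Not all were silent in Parental cells: mean TPM there was 38.14 for Rpl10l and 32.35 for Tuba3a, against 2.153 for Slc25a31. Silencing itself was not measured. In Zfp352-KO 1 was lower (Tex101, -0.76 ± 0.20), where 3.64% of all genes were, and in the double knockout 3 were, where 4.82% of all genes were: Stk31 (-0.53 ± 0.08), Slc25a31 (-0.84 ± 0.23) and Mov10l1 (-0.34 ± 0.10). Stk31 kept its call on leaving out any 1 library, and by DESeq2 it was the germline gene called lower there (adjusted p = 3.8e-06). The calls of Tex101, Slc25a31 and Mov10l1 were lost without Parental library 1, with up to 6 omissions losing the call (Mov10l1, which was named after its values were seen).

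Markers of other cell types moved with genotype and are given beside these results. Of all tested genes edgeR called 3.43% higher and 3.64% lower in Zfp352-KO, and 3.65% higher and 4.82% lower in the double knockout. Over all libraries of a genotype, the summed TPM of 8 ES cell markers ran from 6615 to 6748 in Parental, 6540 to 6703 in Zfp352-KO and, with both genes deleted, 6648 to 6743. Dppa5a made up the largest part of that sum (mean TPM 3326, 3214 and 3247). EdgeR called 1 of these 8 markers higher in Zfp352-KO and 2 in the double knockout, and 0 lower in either. The summed TPM of 12 fibroblast-type markers was 610 to 648 in Parental, 546 to 605 in Zfp352-KO and 498 to 548 in the double knockout. In both edited genotypes 8 of 11 tested genes were called lower by edgeR, and Fn1 was called higher in Zfp352-KO. For 10 trophectoderm markers the ranges were 401 to 459, 295 to 299 and 262 to 274 TPM (5 of 9 tested lower in both). Keratins made up most of this sum: mean TPM was 139.0, 83.4 and 71.6 for Krt8, 120.1, 83.8 and 69.8 for Krt18, and 85.2, 44.9 and 42.0 for Krt19. Cdx2 (1.97, 0.83 and 0.62) and Hand1 (9.02, 5.68 and 5.73) also had lower means in edited cells. Tfap2c (62.1, 64.2 and 64.6) and Krt7 (9.33, 10.2 and 9.83) did not. For 8 primitive endoderm markers the ranges were 170 to 174, 142 to 156 and 133 to 143 TPM. Most of that last sum was Sparc, with mean TPM of 153.5, 127.3 and 114.9, which was the 1 gene of the 8 called lower in either genotype. Lama1 was called higher in the double knockout (log2 fold change 0.37 ± 0.07, edgeR adjusted p = 0.0041), and the list's median log2 fold change was -0.05 and 0.086. Neuroectoderm markers (5 genes, 4 tested) summed to 68.7 to 70.2, 71.0 to 79.7 and 70.0 to 74.5. Otx2 made up most of this sum and was not called (mean TPM 47.4, 53.9 and 55.8), whereas Nes, the 1 gene called, was lower in both (16.04, 13.11 and 10.16). No marker was at 0 in all libraries, but Lum was listed at 0 in 8 of 9 libraries and Postn did not exceed 0.42 TPM. All markers named in this paragraph were named after their values were seen. In bulk RNA, fewer cells of a type and less RNA per cell cannot be told apart, and the part of such cells in the values of the silencing factors was not tested.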

How the data were processed

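Total RNA of EB5 cells was made into stranded mRNA libraries and read from 1 end over 75 bases, per the labels' protocols. RSEM 1.3.3, STAR 2.7.8a and Trim Galore 0.6.6 were used with build mm10, per the submitters' processing notes. Per the file headers, the authors deposited RSEM expected counts (9.27% were not whole), TPM and transcript lengths per gene. TPM, scaled by the authors for length and depth, gave levels. Members and lists were chosen with earlier results of these data known.

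Expected counts were rounded and all 9 libraries fitted in edgeR 4.0.16 (R 4.3.3; filterByExpr, TMM, glmQLFit, glmQLFTest, two-sided, 6 residual degrees of freedom), with calls at a Benjamini-Hochberg adjusted p under 0.05 over 14300 genes, and no block. The script was tested on simulated data. Trends were loess curves (span 0.3) of each library's log2 CPM on length, or on length and then GC content (GENCODE transcripts, 99.6% of tested genes), entered as offsets. DESeq2 1.42.0, limma 3.58.1 on log2(TPM + 1), other scalings, filters, thresholds and omissions were the alternatives. The 5 libraries with flat trends were chosen after seeing the data. Named genes were all members, Zfp352, Pou5f1, Nanog, Sox2, up to 3 genes of each other list called in an edited genotype against Parental with the smallest adjusted p, and the 2 genes closest to each called member. Counts of replicate libraries differed by more than sampling noise (chi-square per degree of freedom 2.51 to 7.04). Depth ran from 16599004 to 22044820 expected counts, and the common biological coefficient of variation was 4.95%. Loci and promoters came from RefSeq (GRCm38.p6, the assembly of mm10).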

Additional observations from a re-analysis of the deposited data

How the results depend on the processing

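Across the alternatives of the 30 member changes, 556 values kept direction and side of the threshold, 23 lost a call, 10 gained one and 41 changed sign. Causes were not tested. In the comparisons with Parental, no count of all genes is given here for the 6-library fits or the other low-count filters. The members called in them are therefore not set against a share of all genes. In Zfp352-KO against Parental, 2 members were called, and 0 with limma, 1 with CPM of at least 1 in 3 libraries, 1 with the length trend removed, 0 with length and GC trends removed, 4 with only the 6 libraries compared, 0 with the 5 libraries of flat length trend (chosen after seeing the data) and 0 at an adjusted p under 0.01. Genes called there numbered 1010, and 359 with limma, 124 in the 5 libraries and 257 at 0.01. In Zfp352/Zfp353-DKO against Parental 1 member was called without a low-count filter, and the 1211 genes became 578 with limma, 279 in the 5 libraries and 467 at 0.01. Between the edited genotypes 15 genes became 1 with limma, 66 without a filter, 40 with length and 61 with length and GC trends removed, 3 with the 6 libraries compared, 41 in the 5 libraries and 3 at 0.01. The split into higher and lower genes in Zfp352/Zfp353-DKO against Parental was 522 to 689, and 777 to 663 and 777 to 653 with length, and with length and GC, trends removed. In Zfp352-KO it was 490 to 520, and 122 to 237 with limma, 529 to 373 with DESeq2 and 31 to 93 in the 5 libraries.

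Leaving out 1 library gave 0 to 4 members and 210 to 1552 genes called in Zfp352-KO against Parental, where without Parental library 1, 2 or 3 or Zfp352-KO library 1 or 2 no member was called. It gave 449 to 1337 genes in Zfp352/Zfp353-DKO against Parental and 3 to 21 between the edited genotypes. Log2 fold changes near 0 changed sign in such omissions: in Zfp352-KO against Parental those of Trim28 (-0.0271 to 0.0287) and Daxx (-0.0048 to 0.0452), in Zfp352/Zfp353-DKO against Parental those of Ehmt1 (-0.0029 to 0.0569) and Kdm1a (-0.0466 to 0.0168), and between the edited genotypes those of Trim28 (-0.0011 to 0.0627), Atrx (-0.2191 to 0.0078), Daxx (-0.0211 to 0.0530), Ehmt1 (-0.0518 to 0.0004) and Ehmt2 (-0.0392 to 0.0193).

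Other settings changed the sign of small values only. In Zfp352-KO against Parental Trim28 was at 0.0045 with DESeq2's size factors, 0.0054 with DESeq2, 0.0440 with limma, 0.0041 without a filter, 0.0099 with length and 0.0862 with length and GC trends removed, 0.0026 with 6 libraries and 0.0312 with the 5. Ehmt1 was at -0.0045 with the length trend removed and -0.0366 in the 5 libraries, and Kdm1a at 0.0025 in the 5. In Zfp352/Zfp353-DKO against Parental Hells was at -0.0503 with length and GC trends removed, Ehmt1 at -0.0094 with the length trend removed and -0.0652 in the 5 libraries, Kdm1a at 0.0261 with limma, 0.0002 with length, 0.0110 with length and GC trends removed and 0.0619 in the 5 libraries, and Cbx1 at 0.0389, 0.0292 and 0.0563 in those last 3 settings.

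The labels give replicate numbers but nothing that pairs libraries. Deviations of same-numbered libraries correlated between -0.0767 and 0.106, over 0.1 in 1 of 9 pairs, and not every library correlated best with its own number. With the replicate number as a block, 0 members and 569 genes were called in Zfp352-KO against Parental, and with the block and the length trend removed 1 member and 626 genes. With that block and the length trend removed, Trim28 (0.0095) and Ehmt1 (-0.0055) in Zfp352-KO and Ehmt1 (-0.0095), Kdm1a (0.0008) and Cbx1 (0.0395) in Zfp352/Zfp353-DKO changed sign.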
